A study of Mus musculus with 6 samples.

Results

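The genes described here are 47 that act in DNA replication and S phase, picked as a list of gene symbols. All 47 stood among the 24421 symbols listed for each library. They were sorted by role into 9 sets, from the licensing of replication origins to the assembly of chromatin on new DNA.

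Endothelial cells sorted from normal brain of C57BL/6 mice (3 libraries) were compared with endothelial cells sorted from glioma of C57BL/6 mice (3 libraries). The tumors had grown for 3 weeks from GL26l cells, a mouse glioma line, that were injected into the brains of congenic mice. The labels name no transgene, mutation or drug in either group. The sources used here do not give the age of the mice, the surface markers used for sorting or the number of animals behind each library. The series' text calls the 3 RNA sets of each kind independent, but no source ties each set to an animal of its own. The p-values therefore reflect only how far these samples spread, and that spread may be technical.

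DNA is copied once per cell cycle. In G1, the origin recognition complex with Cdc6 and Cdt1 loads the ring of MCM subunits onto DNA. At the start of S phase, Cdc45 and the GINS complex turn that ring into the active CMG helicase, and polymerases, the sliding clamp and its loader build the new strands. E2F transcription factors, freed from the retinoblastoma protein by cyclin-dependent kinases, drive many of these genes, so their transcripts mark cells that enter or pass through S phase. Endothelium of the healthy adult brain divides rarely, whereas endothelium that sprouts into a growing tumor can divide.

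The values are log2(x + 1) of normalized 3′ tag levels, with 0 for a gene without a value, and a difference is glioma minus normal on that scale. Because the QuantSeq method reads each transcript near its 3′ end, levels of different genes need no correction for length. Read depth is unknown, since these values keep no library totals. The libraries differed in how many genes lay above 0, from 7446 (30.5%) in normal replicate 1 to 13108 (53.7%) in glioma replicate 1, and in the lowest value above 0, which spanned 0.22 (normal replicate 3) to 7.43 (normal replicate 1). A gene absent from normal replicate 1 therefore differs by at least 7.43 from one just present there, so zeros are given apart from values above 0. Normal replicates 2 and 3 were far more alike (Pearson's r = 0.97 across the 5880 genes above 0 in all libraries) than either was to normal replicate 1 (0.58 and 0.60), and only those 2 normal samples share a date-like number in their file headers. Glioma replicates 2 and 3 share such a number too. No number spans the groups, so whatever it marks cannot be told apart from the group. The 10 endothelial markers listed lay above 0 in every library, between 11.41 for Esam and 17.62 for Egfl7.

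Over the whole table, limma called 0 of 11862 genes tested at an adjusted p under 0.05 (percent called 0), and 509 had an unadjusted p under 0.05. None of the 42 replication genes tested was called. The remaining 5, Mcm10, Gins1, Chek1, Brca1 and Ccne1, did not reach the minimum level in 3 libraries. With weights estimated for each library, limma called 322 genes, among them Clspn, Tyms, Rrm2 and Mcm5. Those weights ran from 0.110 for normal replicate 1 to 17.2 for normal replicate 3, so that fit leaned on the pair of normal samples that are most alike.

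For 9 of the 47 genes the 3 glioma values all lay above the 3 normal values, and for 1 gene, Pola2, they all lay below. Among all genes tested, 6.91% were wholly higher and 6.37% wholly lower. The 9 genes were Clspn, E2f1, Rfc3, Pcna, Pole, Chaf1b, Tipin, Mcm4 and Rrm1. All 9 were at 0 in normal replicate 1. Of the 9, 6 (Clspn, E2f1, Pcna, Tipin, Mcm4 and Rrm1) remained wholly higher when every value was raised to the floor of 7.43 that normal replicate 1 sets, as did 4.14% of all genes tested. An unadjusted p under 0.05 was reached by 6 replication genes with the higher mean in glioma and by 0 with the lower one. The shares of all genes tested were 2.35% and 1.94%. Of the 6, 3 (Clspn, Pole and Chaf1b) were at 0 in every normal sample, so they could pass the level filter only through glioma samples, and their p-values are given as description.

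**Figure D1:**
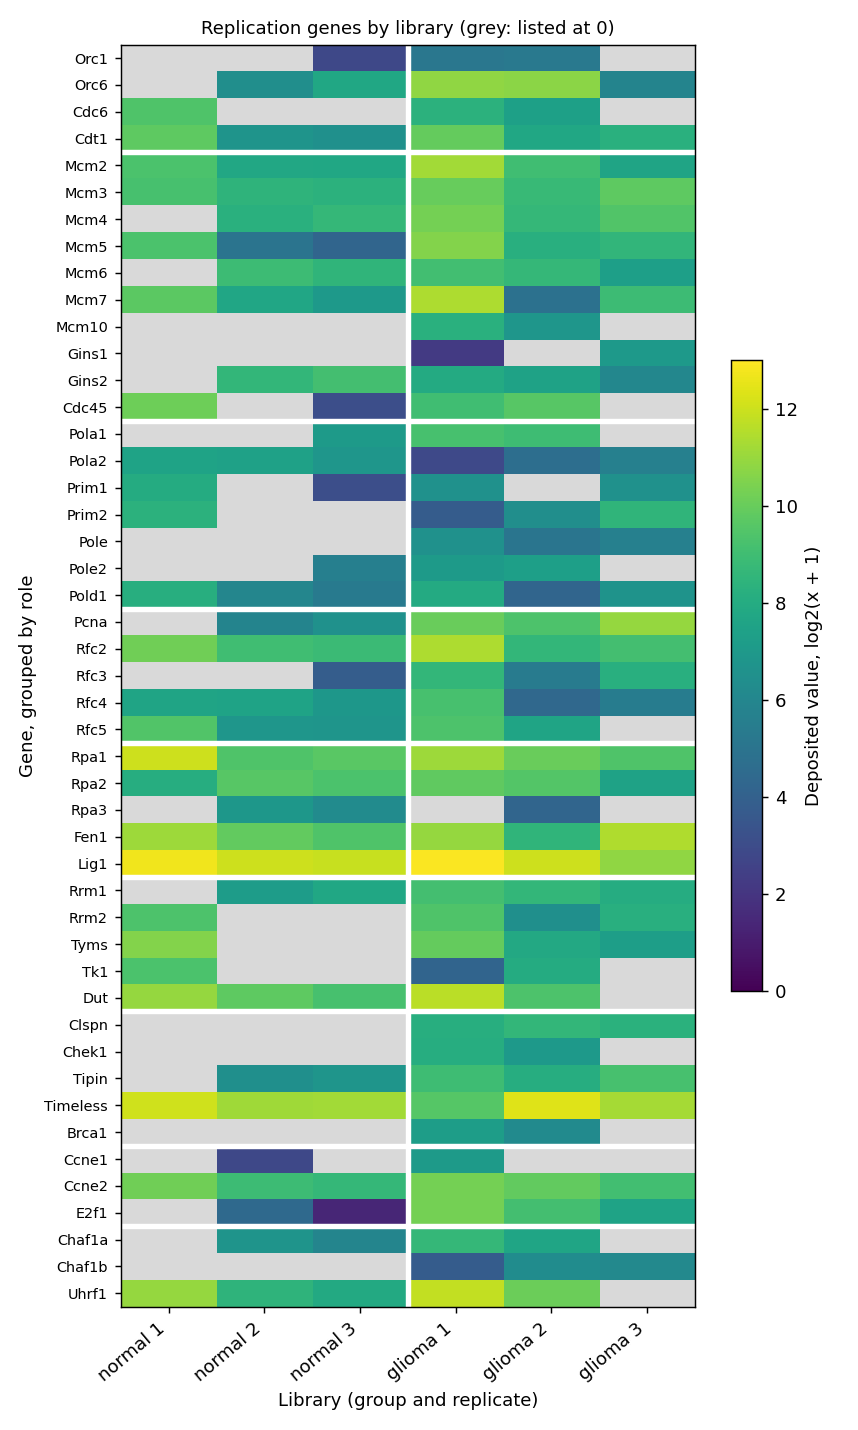
Deposited value on the log2(x + 1) scale (color) of the 47 replication genes (rows, in 9 role sets parted by white lines) in the 3 normal and 3 glioma samples (columns), with grey for a gene listed at 0. Glioma replicate 1 has 1 grey cell, while normal replicate 1 has 22.

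The number of replication genes detected differed within each group as well as between the groups. Of the 47 genes, normal replicates 1, 2 and 3 had 25, 29 and 34 above 0, whereas glioma replicates 1, 2 and 3 had 46, 44 and 32. A second count used only values above 7.43, which 29.4% to 30.0% of all genes reached in each library. By that count, 25 (53.2%), 16 (34.0%) and 16 (34.0%) of the 47 genes were present in the normal samples, and 35 (74.5%), 28 (59.6%) and 21 (44.7%) in the glioma samples. Normal replicate 1 thus stood above glioma replicate 3, and the groups overlapped.

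**Figure D2:**
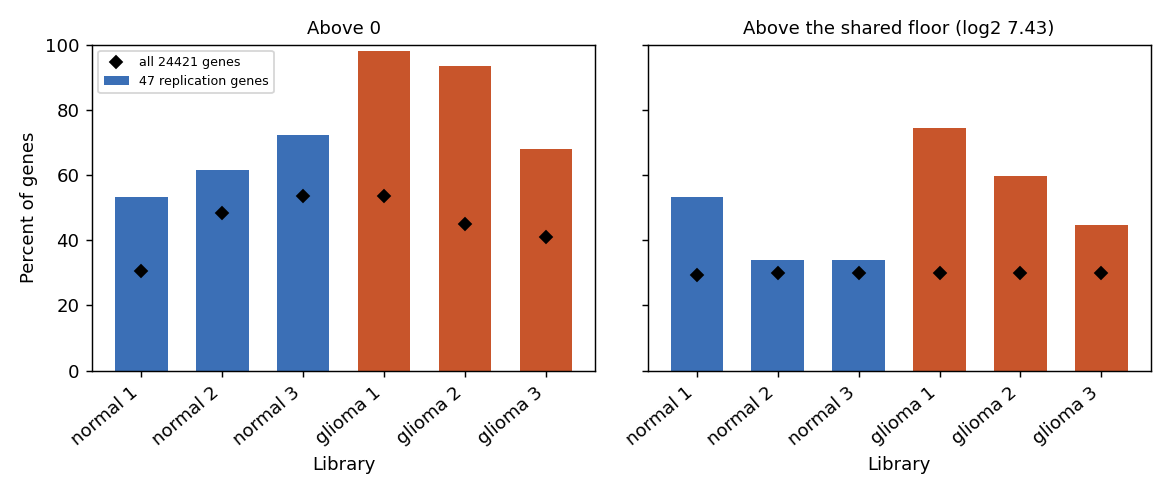
Percent of the 47 replication genes (bars, blue for normal and orange for glioma) and of all 24421 genes (diamonds) above 0 (left) and above the shared floor of 7.43 (right) in each library. On the right the diamonds are level near 30%, while the bars run from 34.0% in normal replicates 2 and 3 to 74.5% in glioma replicate 1.

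Origin licensing genes did not separate the groups, and most were unevenly detected. Cdt1, which helps to load the MCM ring, was the only one of the 4 above 0 throughout, at 9.75, 6.72 and 6.52 in the normal and 9.94, 7.74 and 8.26 in the glioma samples. Its glioma values exceed those of normal replicates 2 and 3, but normal replicate 1 lies among them. Orc6, the smallest subunit of the origin recognition complex, was at 0, 6.42 and 7.74 in normal and at 10.82, 10.72 and 5.88 in glioma samples. Orc6 was high in glioma replicates 1 and 2 and below normal replicates 2 and 3 in glioma replicate 3, a difference of 4.42 (SE 2.44, limma adjusted p = 0.875), or 2.06 without normal replicate 1. Cdc6, the ATPase that recruits Cdt1 with the MCM ring, was at 9.41 in normal replicate 1, at 0 in the other normal samples, and at 8.38, 7.38 and 0 in glioma. Orc1, the largest ORC subunit, was at 0, 0 and 2.84 in normal and at 5.13, 5.25 and 0 in glioma samples.

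The MCM helicase subunits were present in most libraries, and for all 10 helicase genes the glioma mean was the higher one, though the group values overlapped for 9. The glioma mean was also the higher one for 8467 of all 24421 genes listed, with 7163 lower. Of the 10, 8 were tested, and 6096 of all 11862 genes tested had the higher glioma mean. Mcm10 and Gins1, not tested, were at 0 in all normal samples, so their mean could not be lower in glioma. Without normal replicate 1 the direction turned for Mcm6 (-0.36) and Gins2 (-1.70), both at 0 in that library. Mcm4, one of the 6 subunits of the ring (chr16:15623897-15637400), was at 0, 8.24 and 8.64 in normal and at 10.26, 8.65 and 9.46 in glioma samples. Its groups do not overlap, but glioma replicate 2 and normal replicate 3 are nearly level. Its difference of 3.83 (SE 2.25, limma adjusted p = 0.875) was 1.02 without normal replicate 1. Mcm5, another ring subunit (chr8:75109569-75128439), was at 9.34, 5.01 and 4.26 in normal and at 10.61, 8.19 and 8.56 in glioma samples. Only normal replicate 1 reached the glioma range. The Mcm5 difference was 2.92 (SE 1.62, limma adjusted p = 0.875), the largest among the replication genes above 0 in all libraries. It was 4.48 without normal replicate 1 and 1.05 with the shared floor.

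The other ring subunits showed smaller gaps between the groups. Mcm3 was at 9.20, 8.47 and 8.35 in normal and at 9.99, 8.76 and 9.76 in glioma samples. Mcm2 was at 9.34, 7.78 and 7.75 against 11.21, 8.99 and 7.57, so that glioma replicate 3 was the lowest of all 6. Mcm7 ran from 4.87 in glioma replicate 2 to 11.40 in glioma replicate 1, a range that holds every normal value, and Mcm6 was at 0, 8.93 and 8.49 against 9.06, 8.64 and 7.33. The 6 subunits form 1 complex, yet Mcm4 and Mcm6 were at 0 in normal replicate 1 while the other 4 stood between 9.20 and 9.71 there.

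Among the factors that activate the ring, Mcm10, a replication initiation factor, was at 0 in the normal samples and at 8.25, 6.83 and 0 in the glioma samples. Gins1 was likewise at 0 in the normal samples, and at 2.22, 0 and 7.06 in glioma. Gins2, a partner of Gins1 in the same complex, was at 0, 8.62 and 9.10 in normal and at 7.95, 7.49 and 6.04 in glioma. Gins2 was thus lower in each glioma library than in normal replicates 2 and 3. Cdc45 was at 10.12, 0 and 3.12 in normal and at 9.0, 9.60 and 0 in glioma samples.

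Polymerase and primase genes went in different directions. Pole, the catalytic subunit of the leading-strand polymerase epsilon (chr5:110286306-110337474), was at 0 in all normal samples and at 6.59, 5.06 and 5.65 in the glioma samples. Every glioma value lies above 0, but below the 7.43 that normal replicate 1 could show at the least, and in glioma replicate 3 it was only the 4th lowest distinct value above 0. The Pole difference was 5.77 (SE 1.79, limma adjusted p = 0.875), and 0 once all values were lifted to the shared floor. Pola2, a noncatalytic subunit of polymerase alpha that starts new strands (chr19:5940542-5964202), was at 7.54, 7.42 and 6.83 in normal and at 2.87, 4.70 and 5.65 in glioma samples. All glioma values of Pola2 were lower, a difference of -2.85, but each was among the 7 lowest distinct values of its library, and the normal replicate 1 value was the 2nd lowest there.

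The catalytic partner of Pola2, Pola1, was at 0, 0 and 7.08 in normal and at 9.23, 8.98 and 0 in glioma samples. Pold1, the catalytic subunit of the lagging-strand polymerase delta, was at 8.12, 5.97 and 5.32 in normal and at 7.95, 4.26 and 6.70 in glioma samples, without a consistent gap. Pole2, the second subunit of polymerase epsilon, was at 0, 0 and 5.59 against 7.07, 7.32 and 0. The primase subunits Prim1 (8.01, 0 and 3.14 against 6.59, 0 and 6.56) and Prim2 (8.37, 0 and 0 against 3.81, 6.42 and 8.53) were both at their normal highest in normal replicate 1.

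Of the clamp and clamp loader genes, Pcna and Rfc3 were wholly higher in glioma. Pcna encodes the sliding clamp that tethers polymerases to DNA (chr2:132249162-132253314). It was at 0, 5.86 and 6.57 in the normal and at 10.05, 9.39 and 10.97 in the glioma samples. The lowest glioma value exceeds the highest normal value by far, and Pcna lay 3.92 higher without normal replicate 1, over 6 libraries 5.99 higher (SE 1.97, limma adjusted p = 0.875). With the shared floor the difference was 2.71, the largest of the 12 genes with the smallest p in this list. Rfc3, a subunit of the clamp loader (chr5:151642756-151651242), was at 0, 0 and 3.86 in normal and at 8.61, 5.39 and 8.21 in glioma samples, a difference of 6.12 (SE 2.43, limma adjusted p = 0.875). With the shared floor the Rfc3 difference was 0.65 and its groups overlapped.

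The other loader subunits did not follow Rfc3. Rfc2 was at 10.18, 9.02 and 8.86 in normal and at 11.41, 8.61 and 9.11 in glioma samples. Rfc4 was at 7.61, 7.54 and 6.87 against 9.21, 4.38 and 5.48, with glioma replicates 2 and 3 below every normal library. Those 2 glioma values were the 4th and 2nd lowest distinct values above 0 in their libraries, and the normal replicate 1 value was the 3rd lowest there. Rfc5 was at 9.50, 6.84 and 6.77 against 9.36, 7.57 and 0.

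Genes that coat single strands and join Okazaki fragments were above 0 for 4 or 5 of 5 in every sample. The mean was lower in glioma for 4 of the 5, and for 5765 of all 11862 genes tested. Without normal replicate 1 the direction turned for Rpa1 (0.63). Lig1, the DNA ligase of replication, had the highest mean level of all 47 genes, between 11.90 and 12.71 in the normal group and at 12.93, 12.03 and 10.83 in glioma samples. The groups overlap, with means of 12.20 ± 0.44 (SD, n = 3) for the normal group and 11.93 ± 1.05 (SD, n = 3) for glioma. Fen1, the flap nuclease that trims Okazaki fragments, was at 11.11, 9.90 and 9.41 against 10.96, 8.52 and 11.46. Rpa1, the large subunit of the single-strand binding protein, was at 12.02, 9.43 and 9.66 against 11.10, 10.03 and 9.41, and Rpa2 at 8.09, 9.60 and 9.33 against 9.82, 9.52 and 7.48. Rpa3, the small subunit, was at 0, 6.89 and 6.27 against 0, 4.26 and 0. These proteins also serve DNA repair, outside S phase.

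Nucleotide supply genes set normal replicate 1 apart from the other normal samples. Tyms, the thymidylate synthase, reached 10.58 in normal replicate 1 but 0 in the other normal samples, and 9.93, 7.86 and 7.30 in the glioma samples. Rrm2, the S phase subunit of ribonucleotide reductase (chr12:24708241-24714146), was at 9.37, 0 and 0 in normal and at 9.42, 6.48 and 8.22 in glioma samples. Its difference was 4.92 (SE 3.01, limma adjusted p = 0.875), 8.04 without normal replicate 1 and 0.28 with the shared floor. Tk1, the thymidine kinase of S phase, was at 9.32, 0 and 0 against 4.17, 8.02 and 0. The normal replicate 1 values of Tyms, Rrm2 and Tk1 thus lie at or above most glioma values.

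Rrm1, the large subunit of ribonucleotide reductase (chr7:102441695-102469771), had the opposite pattern among the normal samples, at 0, 7.19 and 7.74. It was at 9.14, 8.61 and 8.03 in glioma, wholly higher, with a difference of 3.62 (SE 2.28, limma adjusted p = 0.875), or 1.13 without normal replicate 1. Dut, which removes dUTP, was at 10.96, 9.78 and 9.24 against 11.64, 9.37 and 0.

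In all, 5 of the 47 genes (Cdc6, Prim2, Rrm2, Tyms and Tk1) were above 0 in normal replicate 1 and at 0 in both other normal samples, and so were 0.733% of all genes tested. Another 10 (Orc6, Mcm4, Mcm6, Gins2, Pcna, Rpa3, Rrm1, Tipin, E2f1 and Chaf1a) were at 0 in normal replicate 1 and above 0 in the other 2, as were 34.0% of all genes tested.

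Of the 5 fork protection and checkpoint genes, 3 were at 0 in every normal sample. So were 7 of all 47 replication genes (14.9%) and 43.3% of all 24421 genes listed, a share that includes genes at 0 in every library. At 0 in every normal but above 0 in any glioma sample were 7 of the 47 and 1793 of the 24421. At 0 in every glioma but above 0 in any normal sample were 0 of the 47 and 1142 of the 24421. Clspn encodes claspin, an adaptor that carries the stalled-fork signal to the kinase Chk1 (chr4:126556935-126593903). It was at 0 in all normal samples and at 8.15, 8.61 and 8.32 in the glioma samples. The glioma values lie close together and above the lowest value any library could show, with a difference of 8.36 (SE 2.14, limma adjusted p = 0.875), the largest of the list, and of 0.93 with the shared floor. Clspn was called without the mean trend (adjusted p = 0.0475) and with library weights (adjusted p = 0.0289), and its adjusted p without normal replicate 1 was 0.391. Its normal values have no spread and it passed the level filter through the glioma samples alone, so these calls are no support for a difference. Clspn, Pole and Chaf1b were the 3 genes at 0 in all normal and above 0 in all glioma samples, a pattern that 0.481% of all genes tested showed. The reverse pattern was shown by 0 of the 47 and by 0.371% of all genes tested.

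Chek1, the gene of Chk1, and Brca1, a repair and fork protection factor, were both at 0 in the normal samples and in glioma replicate 3. Chek1 was at 8.11 and 6.97 and Brca1 at 7.26 and 6.20 in glioma replicates 1 and 2. Tipin (chr9:64281581-64305424) and Timeless encode the partners in a fork protection complex, and their transcripts behaved differently. Tipin was at 0, 6.49 and 6.78 in normal and at 8.96, 8.11 and 9.19 in glioma samples, wholly higher by 4.33 (SE 2.22, limma adjusted p = 0.875), by 2.12 without normal replicate 1 and by 1.33 with the shared floor. Timeless was high throughout, at 12.07, 11.17 and 11.20 in normal and at 9.59, 12.37 and 11.26 in glioma samples.

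Of the G1/S regulators, E2f1 was wholly higher in glioma. E2f1 encodes an activating E2F factor (chr2:154559407-154569892). It was at 0, 4.45 and 1.42 in the normal and at 10.29, 9.11 and 7.56 in the glioma samples. The lowest glioma value lies well above the highest normal value, with a gap between the means of 7.03 (SE 2.33, limma adjusted p = 0.875), or 1.56 with the shared floor. Ccne2, a cyclin E that activates Cdk2 at the G1/S border, was at 10.18, 8.91 and 8.66 in normal and at 10.30, 9.87 and 9.08 in glioma samples. Its paralog Ccne1 was at 0, 2.84 and 0 against 7.07, 0 and 0.

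E2F factors bind sites of the form TTTCCCGC, TTTCGCGC, TTTGCCGC or TTTGGCGC, and these 4 were searched on both strands in the 250 bases before each transcription start in the RefSeq promoter table (GRCm38.p6). The table held 44 starts of 39 of the 47 genes. A match lay before 8 of the 44 starts (18.2%), and before 611 of all 32851 starts (1.86%). The CCAAT box was found before 24 of the 44 starts (54.5%) and 33.8% of all starts. The cell cycle element of mitotic genes, searched as TTTGAA or TTCGAA, was found before 5 of the 44 (11.4%) and 17.1% of all. A match is a description of the letters and says nothing of binding in these cells. The 8 stretches with a match are shown because the list holds both E2f1 and genes known as E2F targets, 5′ to 3′ on the strand of the gene, with matched letters in capitals (overlapping matches run together).
Mcm6, chr1:128359734-128359826, minus strand: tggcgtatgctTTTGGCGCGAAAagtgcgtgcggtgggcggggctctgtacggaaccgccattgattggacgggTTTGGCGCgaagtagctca
Mcm5, chr8:75109345-75109378, plus strand: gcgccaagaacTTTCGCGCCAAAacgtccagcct
Rfc3, chr5:151651209-151651229, minus strand: acgtcgcacgcTTTCGCGCtc
Cdc6, chr11:98908002-98908031, plus strand: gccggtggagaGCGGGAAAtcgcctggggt
Orc1, chr4:108579416-108579445, plus strand: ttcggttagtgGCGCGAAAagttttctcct
Mcm7, chr5:138172030-138172059, minus strand: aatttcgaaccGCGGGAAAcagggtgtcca
Pola1, chrX:93632275-93632304, minus strand: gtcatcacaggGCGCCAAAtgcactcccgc
Uhrf1, chr17:56304117-56304146, plus strand: cccgagtcgggTTTCGCGCgcccaggcgtc
The stretches of Orc1, Mcm7 and Rfc3 overlap annotated GENCODE exons of the same gene, and that of Mcm7 also one of Ap4m1, so part of them may be transcribed. Mcm6 held 3 matches and Mcm5 held 2, each with a pair that overlaps on opposite strands. Of the 9 genes wholly higher in glioma, Rfc3 alone is in this set, while 3 (Mcm4, Pole and Tipin) had no entry in the table.

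Chromatin genes were split. Chaf1b, a subunit of the chromatin assembly factor CAF-1 that deposits histones behind the fork (chr16:93883901-93906115), was at 0 in the normal and at 3.81, 6.31 and 6.12 in the glioma samples. All glioma values are above 0 but below 7.43, with a difference of 5.41 (SE 1.79; limma adjusted p = 0.875), which was 0 with the shared floor. Chaf1a, the large CAF-1 subunit, was at 0, 6.75 and 5.89 in normal and at 8.66, 7.62 and 0 in glioma samples. Uhrf1, which guides maintenance DNA methylation, was at 10.96, 8.48 and 7.92 against 11.81, 10.06 and 0.

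**Figure D3:**
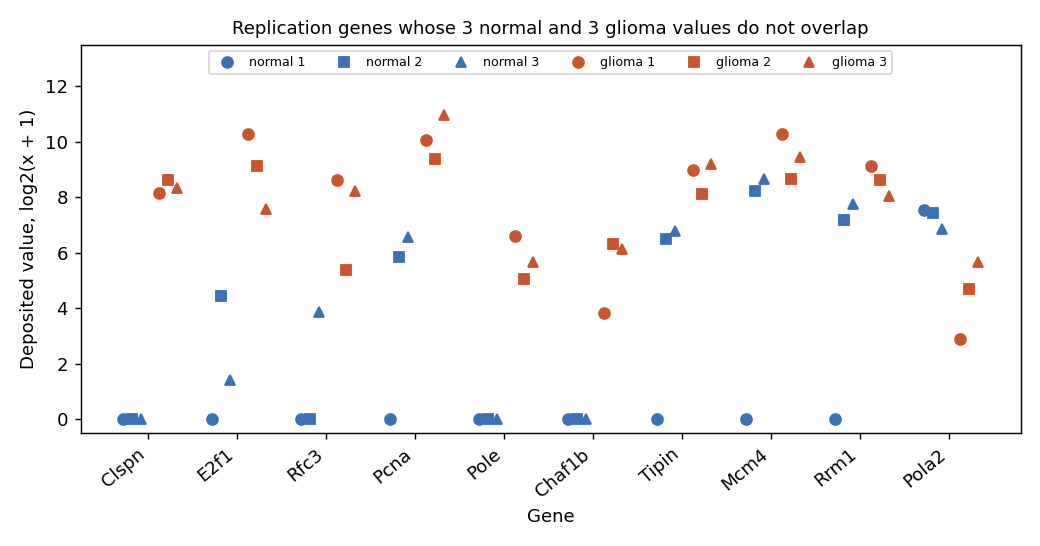
Deposited value on the log2(x + 1) scale of the 10 replication genes whose groups do not overlap, with blue symbols for normal and orange for glioma samples and 1 symbol shape per replicate number. Clspn, Pole and Chaf1b have all normal points at 0, and Pola2 is the 1 gene with the glioma points below.

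Glioma replicate 3 was the glioma library with the fewest replication genes. In it 13 of the 47 genes were at 0 while above 0 in glioma replicates 1 and 2 (Orc1, Cdc6, Mcm10, Cdc45, Pola1, Pole2, Rfc5, Tk1, Dut, Chek1, Brca1, Chaf1a and Uhrf1). Among genes tested, 10 of the 42 and 12.3% of all had that pattern. Without this library 17 genes, 14 of them tested, were wholly higher in place of 9, while the share of all genes tested rose from 6.91% to 12.4%. Without normal replicate 1 the number was 16, where 14.7% of all genes tested were wholly higher, and it added Cdt1, Mcm3, Mcm5, Prim2, Rrm2, Tyms and Ccne2 to the 9. Wholly lower were then 3 genes (Gins2, Pola2 and Rpa3) and 20.7% of all genes tested.

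The 15 genes above 0 in all 6 libraries give differences that no zero widens. Such a gene has at least 7.43 in normal replicate 1, while each other library could show 5.22 or less. The choice of these genes can therefore raise the normal mean. Of these 15, 8 had the higher mean in glioma and 7 the lower, from 2.92 for Mcm5 to -2.85 for Pola2, with a median of 0.17. Over all 5880 genes above 0 in all libraries, 41.9% had the higher mean in glioma and the median was -0.18. All 4 helicase genes among the 15 (Mcm2, Mcm3, Mcm5 and Mcm7) had the higher glioma mean, and 3 of the 4 single-strand and ligation genes had the lower one. Those 3 differences were small, at -0.07 for Rpa2, -0.19 for Rpa1 and -0.28 for Lig1. These and that of Mcm7 (0.27) were smaller than their SE. Without normal replicate 1, Rpa1 turned to 0.63 and Lig1 was at -0.02. Over all 47 genes, zeros included, 36 had the higher mean in glioma, 11 had the lower, and the median difference was 1.79. Over all 24421 genes, 8467 had the higher mean, 7163 had the lower, and the median was 0. Over the 42 tested the median was 1.23, beside 0.05 over all 11862 genes tested, of which 6096 had the higher mean.

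**Figure D4:**
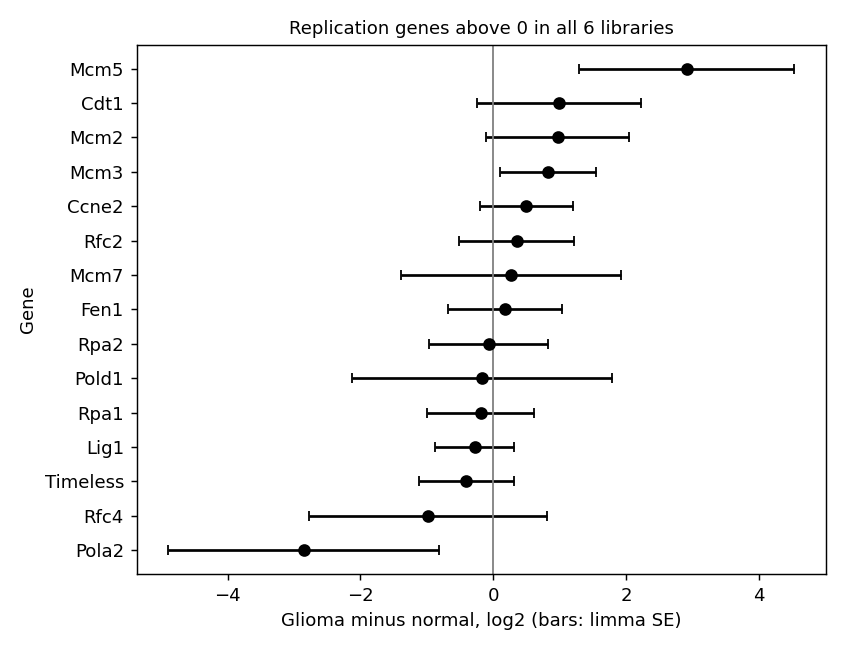
Difference of group means (glioma minus normal, log2) of the 15 replication genes above 0 in all 6 libraries, with limma SE as bars. The points run from 2.92 for Mcm5 down to -2.85 for Pola2, on both sides of 0.

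A further 46 genes of replication and S phase were listed, of which 4 were wholly higher in glioma, 0 were wholly lower and 0 of 39 tested were called by limma. The shares of all genes tested were 6.91% wholly higher and 6.37% wholly lower. Gins4, a GINS subunit like Gins1 and Gins2, was at 0, 6.24 and 6.79 in normal and at 8.52, 8.19 and 8.77 in glioma samples. Ccna2, the S phase cyclin A, was at 7.87, 8.78 and 8.65 against 9.89, 9.12 and 9.85. Orc2 of the origin complex was at 8.61, 8.19 and 8.39 against 10.29, 9.87 and 8.81, and Samhd1, which breaks down deoxynucleotides, was at 11.89, 11.99 and 12.20 against 12.55, 12.74 and 13.00. Values of these 4 genes do not overlap between the groups, and Ccna2, Orc2 and Samhd1 lay above 0 in all libraries.

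Markers of other cell types varied between the same libraries. Of 12 microglia and macrophage markers, 3, 4 and 6 were above 0 in normal and 10, 2 and 11 in glioma samples, with summed log2 values of 17.0 to 26.9 in normal and of 49.7, 14.0 and 103.8 in glioma replicates 1, 2 and 3. Of 6 fibroblast markers, 2, 3 and 4 were above 0 in normal and 6, 4 and 0 in glioma samples, with sums of 12.2 to 15.2 and of 51.2, 27.6 and 0. Of 7 glioma or neural progenitor markers, 3, 2 and 6 were above 0 in normal and 6, 4 and 5 in glioma samples, with sums of 22.6 to 34.4 in normal and 38.8 to 50.3 in glioma samples. Of these 7, 1 was wholly higher in glioma and 0 wholly lower (6.91% and 6.37% of all genes tested). The higher one, Sox2, was at 0, 0 and 1.22 in normal and at 7.92, 5.53 and 8.47 in glioma samples. The glioma mean was higher for 5 of the 7 and lower for 2, Nes and Olig1. Nes was at 10.16, 10.39 and 10.73 against 9.53, 10.32 and 10.33, and Olig1 at 0, 0 and 2.94 against 0 throughout. The normal replicate 2 sum came from Nes and Vim (12.16) alone, so the sums also hold genes that are high in normal samples. In glioma replicate 2, Ptprc (7.20) and C1qa (6.78) were the macrophage list's genes above 0, and the other 10 were at 0. The part of macrophages, fibroblasts, tumor cells and other cells in the replication gene values was not tested. In RNA from a sorted population, more cells in S phase and more RNA per cell cannot be told apart.

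Some gene models limit how far a value belongs to 1 gene. In the annotation, the last 300 bases of 7 of the 47 genes (Mcm7, Gins2, Rfc4, Rfc5, Fen1, Ccne2 and Chaf1a) overlap an exon on the opposite strand, and whether strand was used in counting is not given. The 3′ ends of 6 (Mcm4, Mcm7, Pole2, Rrm2, Tyms and Uhrf1, of which Mcm7 is in both sets) share a run of 50 bases with 1 to 10 other annotated genes, and those of Mcm5, Pola2 and Rpa2 hold a run found in more than 10. Reads of these could be split, so their values are uncertain.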

How the data were processed

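A Lexogen QuantSeq kit was used to make 3′ tag libraries of total RNA, per the labels' protocols. The submitters' processing notes name Bowtie2, edgeR and the build mm10, with neither role nor version. The counter, its use of strand, the annotation and the normalization are not named in the sources used here. Each deposited value is a log2 level, 1 for each of 24421 symbols in 6 libraries. From the values, they were read as log2(x + 1) of levels quantile-normalized across libraries: the maximum is 20.85 in each, and after back-transformation 100% of values above 0 lie within 0.02 of a multiple of 1 divided by 6. This removes library totals, so depth is unknown and no counting interval is given.

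Groups and replicate numbers come from the sample titles. The whole table was fitted with limma 3.58.1 in R 4.3.3 (mean trend, group as the only term, 4 residual degrees of freedom), with Benjamini-Hochberg adjustment and a threshold of 0.05. A gene was tested where 3 or more libraries had a back-transformed level of 1 or more. The script was tested on simulated data. Positions are from GENCODE M21 (GRCm38, the assembly of mm10) and promoter sequences from RefSeq (GRCm38.p6). The replication genes and all lists were chosen with earlier results of these data known. The rule for named genes accounts for all 47, gives values where groups do not overlap or 1 group is at 0 throughout, and for at least 1 gene of each role, and gives tests for the 12 with the smallest p. Other gene lists are named by the smallest p, up to 4 genes each, apart from Rbl1, which was added after its values were seen. Cell type markers are not named by this rule. Alternatives were other filters, a shared floor, a pseudocount of 32, median centring, variance and weight settings, zeros as missing, a replicate block, and each library left out. The other marker lists, of 12 in all, gave these counts above 0 in normal and in glioma replicates 1, 2 and 3: pericytes and smooth muscle (8 markers) 7, 8 and 8 against 6, 8 and 7, T and NK cells (6) 1, 1 and 1 against 0, 1 and 0, B cells (4) 0 throughout, granulocytes (3 found of 4) 0, 1 and 1 against 3, 0 and 0, erythroid cells (6) 4, 5 and 5 against 6, 5 and 5, neurons (6) 2, 6 and 6 against 5, 1 and 2, astrocytes (6) 3, 5 and 5 against 4, 2 and 3, and the oligodendrocyte lineage (6) 1, 5 and 3 against 4, 5 and 0.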

Additional observations from a re-analysis of the deposited data

How the results depend on the processing

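No alternative turned the sign of any of the 12 tested differences named, though the shared floor took those of Pole and Chaf1b to 0. Much of this was fixed in advance. The 9 genes wholly higher are among the 12, and leaving a library out cannot turn their sign. Neither can a floor, a pseudocount or library weights. The fits with no filter, no mean trend or a replicate block leave each difference as it was. With zeros as missing, Clspn, Pole, Chaf1b, Rfc3 and Rrm2 were not fitted. The number of genes called by limma was 0 in all fits but 2: 15 without the mean trend and 322 with library weights, with Clspn called in both and Tyms, Rrm2 and Mcm5 in the second. Titles share replicate numbers, and whether these pair the samples could not be settled. Deviations from the group means correlated at 0.19, 0.15 and 0.06 for numbers 1, 2 and 3. Normal replicates 1 and 2 correlated best with the glioma replicate of their own number, but normal replicate 3 with glioma replicate 2 (0.19). Deviations within so small a group depend on one another, so these values can neither show nor exclude pairing. With the replicate block 0 genes were called, and 610 in place of 509 had an unadjusted p under 0.05. The number of replication genes wholly higher was 17 with both libraries numbered 1 left out (24.6% of all genes tested). With each library left out it ran from 9, as without normal replicate 2 (7.76%) or glioma replicate 1 (15%), to 17. The 17, of which 14 were tested, came without glioma replicate 3 (12.4%). Genes that do not overlap in all libraries cannot overlap in fewer, so the 9 stay by construction. The number wholly higher was 6 with the shared floor (4.14%) and 11 after median centring, 8 of them tested (7.6% of all genes tested). Centring lost Mcm4 and added Brca1, Chek1 and Mcm10, whose zeros it shifts by library. The median difference over replication genes was 0.23 with the shared floor and 0.17 over those above 0 in all libraries, and ran from 0.57 without glioma replicate 1 to 2.66 without glioma replicate 3 with each library left out. Above the shared floor lay 16, 16, 28 and 21 replication genes in normal replicates 2 and 3 and glioma replicates 2 and 3, where 29, 34, 44 and 32 were above 0, and unchanged 25 in normal replicate 1. Without counts, a 0 cannot be told from a low level that the library missed.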

Other observations

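Genes that hold cells out of S phase were listed as well. Cdkn1a, which encodes the cyclin-dependent kinase inhibitor p21, was at 10.94, 10.77 and 11.09 in normal and at 11.31, 12.45 and 13.15 in glioma samples, wholly higher by 1.37 (SE 0.55, limma adjusted p = 0.875). Of the 10 inhibitor and pocket protein genes 1 was wholly higher and 1 wholly lower, near the 6.91% and 6.37% of all genes tested. The lower one, Rbl1 of the retinoblastoma-like protein p107, was at 8.95, 8.0 and 7.77 against 6.54, 6.83 and 7.37, and was chosen after its values were seen. Its relative Rbl2 was at 0, 9.40 and 9.38 against 7.16, 10.39 and 11.66, and Cdkn1b, the gene of the inhibitor p27, at 0, 9.51 and 9.55 against 9.78, 8.55 and 10.05. Cdkn1c, the gene of the inhibitor p57, was at 7.54, 9.99 and 10.08 against 13.80, 10.13 and 8.73. The G1 cyclins and their kinases did not separate the groups for any of 5 genes. Ccnd1 was at 13.13, 11.04 and 11.16 in normal and at 12.34, 13.31 and 12.10 in glioma samples, Ccnd2 at 11.72, 9.87 and 10.06 against 12.83, 10.79 and 10.19, and Ccnd3 at 7.80, 13.31 and 13.13 against 11.99, 12.13 and 12.94. Cdk6, a kinase partner of the D cyclins, was at 0, 3.92 and 3.39 against 1.42, 0 and 0.

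Mitotic genes, which act after S phase, were wholly higher in glioma for 8 of 30 listed, wholly lower for 0 (6.91% and 6.37% of all genes tested), and above 0 for 13, 8 and 16 of 30 in normal and 30, 27 and 21 in glioma samples. Mad2l1, a spindle checkpoint gene, was at 0 in all normal samples and at 7.48, 7.62 and 8.28 in the glioma samples. Bub1b and Ccnb2 were at 0 in all normal samples too, and at 7.76, 8.52 and 5.22 (Bub1b, of the same checkpoint) and 8.33, 4.78 and 8.51 (Ccnb2, a mitotic cyclin) in the glioma samples. The Bub1b value of 5.22 is the lowest above 0 in glioma replicate 3. Mad2l1, Bub1b and Ccnb2 are among the 8 and could pass the level filter only through glioma samples, so their values are given as description. Birc5, the gene of survivin, was at 9.99, 6.31 and 5.98 against 11.68, 10.48 and 10.50. Whether mitotic and replication genes differ in this was not tested.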
